A study of Homo sapiens with 50 samples.

Results

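Short hairpin RNAs (shRNAs) against 5 genes of the senescence programme were followed through the replicative lifespan of human fibroblasts: CDKN2A, CDKN1A, RB1, RBL1 and LMNB1. The members were all hairpins of the deposited table whose gene name was exactly one of these. There were 34 of them among 3443: 7 against CDKN2A, 7 against CDKN1A, 8 against RB1, 7 against RBL1 and 5 against LMNB1, and 0 hairpins named one of these genes together with another. All 5 names are current symbols. Single hairpins are named by their catalogue numbers in the table, which begin with TRCN.

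IMR90 is a human lung fibroblast line that divides a limited number of times and then stops, a state called replicative senescence. The cells were kept at 3% oxygen and infected with pooled lentiviruses, each virus carrying 1 hairpin that lowers the expression of its target, at a multiplicity of infection of 0.3. Hairpins against regulators of chromatin had been divided among 5 starting pools, and these were mixed in pairs to infect 10 plates. DNA was taken at population doubling (PD) 40, when the cells were proliferating, then at PD45, PD50 and PD55, and lastly from senescent cells at PD60. All groups share the line, the infection and the library and differ only in the number of doublings; there was no uninfected group. Per the design text, hairpins against lamin B1 were added to each pool as controls that hasten senescence, beside a non-targeting hairpin; which of the LMNB1 hairpins served as that control is not stated there.

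The inhibitors of cyclin-dependent kinases hold the retinoblastoma family of proteins in its active form, and that family then represses the E2F genes needed for DNA replication. CDKN2A encodes p16, an inhibitor of the kinases CDK4 and CDK6, and, in another reading frame, the protein ARF. CDKN1A encodes p21, an inhibitor of CDK2 complexes. RB1 and RBL1 encode the retinoblastoma protein and its relative p107. LMNB1 encodes lamin B1, a filament protein of the nuclear envelope whose level falls in senescent fibroblasts. In this screen a hairpin becomes more abundant when the cells that carry it leave more descendants than their neighbours.

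The deposited table had 1 column per population doubling, each the authors' pool over plates, with 8270745 to 11505688 sequence tags. There was therefore no replicate, no test between times was possible, and the intervals below are exact 95% Poisson or binomial intervals that cover counting error only. Abundance is given in tags or in CPM, the tags scaled to the column total, so that every CPM value is relative to the other hairpins. Where 5 values are given for a hairpin or gene, they run in order from PD40 through PD45, PD50 and PD55 to PD60. A hairpin was called higher or lower where log2 of CPM plus 1 differed by over 2-fold, among hairpins with at least 10 tags in either column. The whole library narrowed over the series: 1519 of 3443 hairpins (44.1%) had 0 tags at PD60, and the median log2 difference between PD60 and PD40 was -5.86 over 3418 hairpins.

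At PD60, 2 of the 34 hairpins were over 2-fold higher than at PD40 and 32 were over 2-fold lower. Over all hairpins these shares were 2.28% and 95.3%. The 2 higher hairpins were CDKN2A TRCN0000010482 and LMNB1 TRCN0000029272. The 34 members passed the tag minimum, each through its PD40 count. Of these, 22 were in the highest quintile of PD40 abundance, where 1.45% of all hairpins were at 0 tags at PD60. The shares and medians over all hairpins that follow are not matched for starting abundance. With 1 CPM added, a hairpin at 0 tags at PD60 takes a log2 difference set by its start alone. Hairpins that start low can therefore fall less, as with RBL1 TRCN0000010405, at -5.02 from 272 to 0 tags. At PD60, 4 of 34 were at 0 tags and 10 of 34 had under 10 tags, against 44.1% and 71.4% of all hairpins. Their median log2 difference was -6.33 beside -5.86 for all hairpins on column totals, and this order turned under the other scalings: it was -0.20 beside -1.84 when columns were scaled by trimmed means (TMM), -0.14 beside -1.91 with DESeq2's size factors, and -4.66 beside -5.43 with totals that leave out the 50 most abundant hairpins. Relative to column totals, directions are those of shares of the culture. With TMM scaling, which raises every hairpin, 13 members were over 2-fold higher, 13 over 2-fold lower and 8 within 2-fold, against 18.8% higher and 64.4% lower of all hairpins. With DESeq2's size factors 13 were higher and 12 lower, against 19.3% and 64.8%. Counts under TMM for single genes, given below, are read against those TMM shares. Those shares include hairpins at 0 tags at PD60, which could not be called higher. The 2 hairpins named above were higher under each scaling tried.

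A few other hairpins of these genes were more abundant in the middle of the series than at its start. At PD45, 1 of 34 was over 2-fold higher than at PD40 and 20 were over 2-fold lower, against 5.73% and 63.2% of all hairpins. At PD50 the numbers were 3 and 27, against 4.94% and 81.9%, and at PD55 they were 2 and 29, against 2.92% and 91.7%. The highest CPM fell on PD40 in 27 of 34 members, on PD45 in 1, on PD50 in 3, on PD55 in 1 and on PD60 in 2. Over all hairpins these shares were 80.4%, 11.97%, 3.98%, 1.74% and 1.95%, so that 27 of 34 is close to the library share at PD40. From PD55 to PD60, 28 members had enough tags, and 3 were over 2-fold higher and 19 over 2-fold lower, against 5.40% and 73.2%.

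Of the CDKN2A hairpins, 1 came to stand for nearly all tags of the gene. TRCN0000010482 had 10168, 12941, 17358, 11000 and 83602 CPM. In the library it ranked 3, 8, 11, 20 and 2 by abundance from PD40 to PD60. The successive ratios were 1.27, 1.34, 0.634 and 7.60, so that most of its gain fell in the last interval. Its PD60 to PD40 ratio of 8.22 (95% counting interval 8.17 to 8.28) stood at percentile 97.5 among the 689 hairpins of the highest quintile of starting abundance.

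TRCN0000039751 followed another course. It had 562, 1295, 2447, 550 and 86.2 CPM. It was thus 4.35-fold higher at PD50 than at the start and 28.4-fold lower at PD60 than at its peak. With TMM scaling it was over 2-fold higher at PD60.

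The other 5 CDKN2A hairpins were lower at each successive time on column totals. TRCN0000010483 had 6711, 606, 302, 208 and 31 tags at the 5 times, with 11.3-fold less of the column at PD45 than at PD40. TRCN0000039752 had 5144, 856, 85, 16 and 2 tags, a PD60 to PD40 ratio of 0.000406 (4.91e-05 to 0.00147). TRCN0000039748 had 2828, 1076, 206, 32 and 3 tags. These courses differ little in direction but much in pace, since the first interval alone took the abundance down 2.68-fold to 11.3-fold. TRCN0000039750 had 1986, 449, 164, 51 and 14 tags. TRCN0000039749 had 1333, 459, 72, 15 and 0 tags, which is at least 426-fold lower at a floor of 3 tags.

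CDKN2A hairpins together held 1.28%, 1.46%, 1.99%, 1.16% and 8.37% of tags from PD40 to PD60 (8.35 to 8.39 at the last). TRCN0000010482 alone made up 79.3% of the gene's tags at PD40 and 99.9% at PD60. Without it the share of the gene was 0.265% at PD40 and 0.00923% at PD60, 28.7-fold lower. The mean log2 difference of the gene was -5.36 (SD 4.20 over 7 hairpins) with it and -6.76 without it. With it the gene was at rank 267, from the highest, of 631 genes with at least 3 hairpins. Hairpins of a gene share their target and are not replicates.

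All 7 CDKN1A hairpins were over 2-fold lower at PD60 than at PD40 as a share of the column, whereas with TMM scaling 5 of 7 were over 2-fold higher and 0 over 2-fold lower, against 18.8% and 64.4% of all hairpins. The 5 include both hairpins of a pair with matching counts, described below, which may be 1 measurement. The 7 hairpins had a median of 6960 tags at PD40, and the highest quintile of the library began at 2998 tags. TRCN0000040125 had 1859, 3190, 3753, 2248 and 472 CPM. It was 2.02-fold higher at its PD50 peak than at PD40, and its PD60 to PD40 ratio was 0.254 (0.245 to 0.263), at percentile 93.1 of all hairpins. Among the 689 hairpins of the highest quintile of starting abundance it stood at percentile 82.7. This hairpin made up 27.5% of the tags of the gene at PD40, 86.4% at PD55 and 61.4% at PD60.

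The other CDKN1A hairpins were below their start at every later time. TRCN0000010401 had 15447, 3723, 2417, 734 and 805 tags. TRCN0000040123 had 11462, 9124, 4824, 2059 and 428 tags, and TRCN0000040127 had 6960, 2461, 1473, 288 and 60. Of these, TRCN0000040123 kept the most through PD45, at 1.28-fold under its start, and TRCN0000010401 had the steepest first interval, at 4.22-fold. TRCN0000040126 started lowest of the gene, with 887 tags, and had 26, 3, 0 and 14 at the later times. Its 14 tags at PD60 are at least 6.49-fold above the floor of 3 tags at PD55.

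Hairpins TRCN0000010400 and TRCN0000040124 had nearly the same counts in every column. The first had 3760, 1069, 612, 515 and 570 tags and the second 3802, 1060, 568, 493 and 582, a difference of at most 1.28 counting SDs (the square root of the summed counts). Among 231 pairs of hairpins naming the same gene or genes with at least 100 tags in every column, 4 pairs stayed within 3 counting SDs in all 5 columns. Whether the 2 catalogue numbers stand for 1 sequence was not tested, and they may be 1 measurement entered 2 times. With the pair counted once, the share of CDKN1A at PD60 was 0.0699% in place of 0.0770%.

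In the last interval 4 of 7 CDKN1A hairpins had higher CPM at PD60 than at PD55. The ratios were 1.53 for TRCN0000010401, 1.64 for TRCN0000040124 and 1.54 for TRCN0000010400, and TRCN0000040126 was the fourth. The matching pair is 2 of these 4. Among all members 6 of 28 were higher by any amount in that interval, the other 2 being CDKN2A TRCN0000010482 and LMNB1 TRCN0000029272, against 10.2% of all hairpins. The share of the gene was 0.676%, 0.518%, 0.492%, 0.260% and 0.0770% from PD40 to PD60. The mean log2 difference was -4.00 (SD 1.67 over 7 hairpins), the 66th highest of 631 genes with at least 3 hairpins, whose median was -5.59. Ranks of gene means are not matched for starting abundance, which bounds how far a mean can fall.

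RB1 hairpins were all over 2-fold lower at PD60 on column totals, though with TMM scaling 3 of 8 were over 2-fold higher and 4 over 2-fold lower, against 18.8% and 64.4% of all hairpins. TRCN0000010419, which ranked 6 in the library at PD40, had 9196, 6768, 3407, 2988 and 1547 CPM. Its ratio was 0.168 (0.165 to 0.171). It carried 61.1% of the RB1 tags at PD40 and 85.5% at PD60.

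TRCN0000040164 was the RB1 hairpin with the latest peak. It had 1307, 2599, 3612, 5640 and 197 CPM. It was 4.32-fold higher at PD55 than at PD40 and ranked 29 in the library, then 28.7-fold lower at PD60. Only 2.26% of hairpins with enough tags went further down in that last interval. Another RB1 hairpin, TRCN0000040166, went down more: it had 220, 319, 324, 107 and 1.21 CPM, 88.6-fold lower at PD60 than at PD55. Both hairpins were above their start at PD50, by ratios of 2.76 and 1.47.

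Of the remaining RB1 hairpins, none exceeded its PD40 level at a later time. TRCN0000040163 stayed close to its start at PD45, with 879, 821, 326, 92.7 and 57.2 CPM. TRCN0000010417 had 22552, 9352, 2528, 832 and 49 tags, ending 441-fold lower. TRCN0000040165 had 3042, 1424, 585, 106 and 8 tags. By PD60 TRCN0000040163 was 15.4-fold lower and TRCN0000040165 365-fold lower. TRCN0000010418 had 2930, 848, 104, 8 and 1 tags, with a ratio of 0.000356 (9.01e-06 to 0.00199). TRCN0000040167 had 1326, 223, 23, 8 and 1 tags, with a ratio of 0.000787 (1.99e-05 to 0.00439).

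RB1 hairpins together held 1.51%, 1.19%, 0.805%, 0.891% and 0.181% of tags from PD40 to PD60. At PD50 and PD55 the largest part belonged to TRCN0000040164, with 44.9% and 63.3% of the tags of the gene. The mean log2 difference at PD60 was -5.91 (SD 2.46 over 8 hairpins), at rank 402 of 631 genes.

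RBL1 had the lowest end level of the 5 genes, and no RBL1 hairpin was over its PD40 level at any later time. All 7 were over 2-fold lower at PD60 on column totals, and 0 were over 2-fold higher and 5 over 2-fold lower with TMM scaling, where 64.4% of all hairpins were lower. TRCN0000010404 had 2260, 1537, 487, 109 and 6.77 CPM. TRCN0000040021 had 1093, 696, 471, 94.0 and 4.60, and TRCN0000040019 had 703, 541, 156, 29.5 and 5.44. These 3 hairpins were under 2-fold below their start at PD45 and 129-fold to 334-fold below it at PD60.

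TRCN0000040018 had 1423, 611, 353, 178 and 10 tags, 10.7-fold under its start at PD55. The last 3 RBL1 hairpins were low earlier. TRCN0000040020 had 1339, 89, 5, 1 and 0, TRCN0000040022 had 1336, 64, 3, 6 and 0, and TRCN0000010405 had 272, 14, 0, 0 and 0. The first of these 3 was 15.3-fold lower by PD45 already, the second 21.3-fold and the third 19.8-fold. At a floor of 3 tags they were at least 428-fold, 427-fold and 86.9-fold lower at PD60. TRCN0000040020 and TRCN0000040022 also differed by at most 2.02 counting SDs, but from PD50 on they had 6 tags or fewer. The share of RBL1 was 0.456%, 0.286%, 0.116%, 0.0249% and 0.00180% from PD40 to PD60 (0.00152 to 0.00212 at the last). The mean log2 difference was -6.91 (SD 1.04 over 7 hairpins), rank 583 of 631 genes.

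LMNB1, the control target, had 1 hairpin that became one of the most abundant of the library and 4 that were over 2-fold lower on column totals; with TMM scaling 3 of 5 were over 2-fold higher and 1 over 2-fold lower, against 18.8% and 64.4% of all hairpins. TRCN0000029272 had 905, 1454, 1589, 7338 and 18715 CPM. The successive ratios were 1.61, 1.09, 4.62 and 2.55, so it was higher at each time than at the one before. It ranked 196, 136, 110, 25 and 17 from PD40 to PD60. Its overall ratio of 20.7 (20.2 to 21.2) stood at percentile 98.3 among hairpins of the highest quintile of starting abundance. CDKN2A TRCN0000010482 gained mainly after PD55, whereas this hairpin was already 8.11-fold higher at PD55.

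TRCN0000029273 had 699, 629, 541, 189 and 37.2 CPM and TRCN0000029269 had 539, 656, 258, 59.8 and 11.2. Both were near their start at PD45, and both were over 2-fold higher at PD60 with TMM scaling. TRCN0000029270 had 3881, 1149, 318, 191 and 52 tags. TRCN0000029271 had 2187, 304, 30, 3 and 5 tags, with a ratio of 0.00239 (0.000774 to 0.00557). The share of LMNB1 was 0.285%, 0.290%, 0.243%, 0.760% and 1.88% from PD40 to PD60. Without TRCN0000029272 it was 0.194% at PD40 and 0.00554% at PD60, 35.1-fold lower. The mean log2 difference was -3.71 (SD 4.65 over 5 hairpins), rank 47 of 631 genes, and -5.73 without that hairpin.

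The order of the 5 genes by summed share changed over the series. At PD40 it was RB1, CDKN2A, CDKN1A, RBL1 and LMNB1, and at PD60 it was CDKN2A, LMNB1, RB1, CDKN1A and RBL1. At both times the counting intervals of neighbours in the order did not overlap. The order at PD60 turned without the most abundant hairpin of each gene at PD60: the shares were then 0.0297% for CDKN1A, 0.0262% for RB1, 0.00923% for CDKN2A, 0.00554% for LMNB1 and 0.00112% for RBL1. At PD45 the counting intervals of the shares of RBL1 (0.283 to 0.290) and LMNB1 (0.287 to 0.294), with all hairpins, overlapped. The 34 hairpins held 4.21%, 3.74%, 3.65%, 3.09% and 10.5% of all tags from PD40 to PD60. Of the 868929 member tags at PD60, TRCN0000010482 accounted for 79.6%.

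The non-targeting hairpin, which matches no gene, was the control measured in the same columns. It had 4562, 1775, 669, 133 and 39 tags, a ratio of 0.00892 (0.00633 to 0.0122). At PD60, 13 members had a ratio whose counting interval lay above that of the non-targeting hairpin, 12 lay below it and 9 overlapped it. Of 3417 other hairpins with enough tags, members included, 18.8% lay above it and 32.6% below, while 1660 hairpins overlapped it. The non-targeting hairpin stood at percentile 34.3 of the log2 differences of all hairpins. Among the 689 hairpins of the highest quintile of PD40 abundance, its own, it stood at percentile 47.1. Intervals are wider for hairpins with fewer tags, and 22 of the 34 members were in the highest quintile of PD40 abundance. The shares of all hairpins, here and at PD55, are not matched for starting abundance. Whether members lay above the non-targeting hairpin more often than equally abundant hairpins was not tested. By gene, the numbers above were 5 of 7 for CDKN1A, 2 of 7 for CDKN2A, 3 of 8 for RB1, 3 of 5 for LMNB1 and 0 of 7 for RBL1. The CDKN1A numbers above, here and at PD55, include both hairpins of the matching pair, which may be 1 measurement. The numbers below were 0 for CDKN1A, 3 for CDKN2A, 4 for RB1, 1 for LMNB1 and 4 for RBL1. At PD55, 20 members lay above it and 10 below, with 6 of 7 CDKN1A hairpins above; of all hairpins 32.2% were above and 45.9% below. The control is a single hairpin, so its own spread between constructs is not known.

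Members close to the non-targeting hairpin in starting tags show how far courses diverged. LMNB1 TRCN0000029269 started at 4652 tags and had 5757, 2190, 688 and 93 at the later times. CDKN2A TRCN0000039751 started at 4851 and had 11374, 20751, 6326 and 713. At PD50 the non-targeting hairpin, with its 669 tags, was below both. It was above CDKN2A TRCN0000039752, which went from 5144 to 85 tags by then, and LMNB1 TRCN0000029270, from 3881 to 318. The matching CDKN1A pair went to 568 and 612 tags, but from lower starts of 3802 and 3760. Relative to those starts the PD50 ratios of the pair were 0.152 and 0.166. Their counting intervals overlapped that of the non-targeting hairpin, at 0.149 (0.137 to 0.162).

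Starting abundance moved with these results. Of the 34 members, 22 were in the highest quintile of PD40 abundance (2998 tags or more), 6 in the next, 5 in the third, 0 in the fourth and 1 in the lowest. Both members that were higher at PD60 came from the highest quintile, where 6.24% of all hairpins were over 2-fold higher and 1.45% were at 0 tags. Of the 4 members at 0 tags at PD60, 3 were in the third quintile, where 45.7% of hairpins were at 0, and 1 in the lowest, where 84.5% were. The part of starting abundance in the courses of single members was not tested.

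Hairpins against other genes of the pathway had shares of higher and lower hairpins at PD60 near those of the whole table, which were 2.28% and 95.3% on column totals. Of 27 names of E2F factors and chromatin partners of the retinoblastoma proteins, 16 had hairpins of their own, and 1 of 86 hairpins was over 2-fold higher and 82 over 2-fold lower. That 1 was against SUV39H2, a methyltransferase of lysine 9 of histone H3: TRCN0000006938 had 322, 661, 1148, 1240 and 1007 CPM. Of 21 names of regulators of the CDKN2A locus, mostly Polycomb subunits that repress it, 15 were present, with 0 of 77 hairpins higher and 75 lower. Their median gene mean was -5.66, and that of the retinoblastoma partners -5.61, beside -5.59 for all 631 genes.

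For kinases and adaptors that signal DNA damage towards CDKN1A, 3 of 8 names (ATM, ATR and H2AFX) had hairpins, of which 1 of 22 was over 2-fold higher and 20 over 2-fold lower. The higher one was against ATR, a kinase activated by stalled replication forks: TRCN0000039617 had 1097, 5356, 6710, 15942 and 18084 CPM. Its ratio was 16.5 (16.1 to 16.8), and 7 of the 8 ATR hairpins were over 2-fold lower. The mean log2 difference of ATR was -5.58, the median of the 3 gene means, which ran from -6.78 to -2.54. The highest of the 3 was above the 95th percentile of all 631 gene means, -3.36. Of the other lamina and envelope genes LMNB2, LBR and TMPO were present, and all 15 hairpins were over 2-fold lower, near the 95.3% of all hairpins. PCNA was the only one of 10 cyclin, kinase and replication partners with hairpins, and 5 of 5 were over 2-fold lower, on the same background. For the list of 5 other inhibitors of cyclin-dependent kinases, 0 hairpins were matched by name.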

How the data were processed

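Genomic DNA was amplified around the hairpin, digested with XhoI within the hairpin and sequenced, per the labels' protocols. The authors deposited counts of tags per hairpin, 1 column per population doubling, each treated here as their pooled value; 0 columns were per plate. The submitters' processing notes name Bowtie 1.0.1. Settings and the pooling of plates are not given in the sources read. Mismatches allowed in mapping could merge hairpins with like sequences.

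Groups are the population doublings given in the sample titles. Counts were scaled to column totals; log2 differences used a pseudocount of 1 CPM, and calls a minimum of 10 tags in either column. Ratios carry exact 95% Poisson intervals and shares Clopper-Pearson intervals. Counts of 0 were bounded by a floor of 3 tags. PCR without molecular identifiers means that these cover counting error only. With 1 column per time no p-value was computed; edgeR 4.0.16 (TMM) and DESeq2 1.42.0 (size factors), in R 4.3.3, served only as alternative scalings. Python 3.11.15, pandas 2.3.3 and scipy 1.17.1 were used, and fold calls and intervals were tested on simulated data. The simulation drew Poisson counts around the PD40 values with 200 hairpins changed, so that interval coverage near 95% was built in. It does not cover a library in which most hairpins become lower.

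The members, the lists and the rule for named genes were chosen with earlier results of these data known. The rule took every member hairpin, the non-targeting hairpin, the 3 genes with the nearest course to each member gene, and in each list up to 4 genes with a hairpin over 2-fold higher at PD60. Some control hairpins are not reported here.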

Additional observations from a re-analysis of the deposited data

How the results depend on the processing

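No paired analysis was possible because the plates carry the numbers and the table has no plate columns. Scaling on the non-targeting control (39 tags at PD60) was planned but not run. Of the 34 members, 2 were higher and 32 lower at PD60; TMM scaling gave 13 and 13 (18.8% and 64.4% of all hairpins), DESeq2's size factors 13 and 12 (19.3% and 64.8%). With PD45 as the end point, added after the data were seen, 1 was higher and 20 lower. Without the most abundant hairpin of each gene at PD40, also added, 0 were higher. TMM scaling and DESeq2's size factors shift every hairpin upwards, moving the median of 631 gene means from -5.59 to -1.25 and -1.32. With them the gene means changed sign, to 2.70 and 2.76 for CDKN1A, both 0.28 for CDKN2A, 0.046 and 0.075 for RB1, and 2.80 and 2.85 for LMNB1. Of all gene means 22.0% and 21.2% were then above 0. RBL1 stayed negative, at -1.93 and -2.00, and was -4.71 with a pseudocount of 10 CPM and -4.95 at PD55. As shares of tags without the 50 most abundant hairpins, PD60 values were 0.451% for CDKN1A, 0.0541% for CDKN2A, 0.0384% for RB1, 0.0106% for RBL1 and 0.0325% for LMNB1; TRCN0000010482, TRCN0000029272, TRCN0000010419 and TRCN0000040164 were among those 50. With matching hairpins counted once CDKN1A had 0.0699%. Leaving out 1 hairpin moved the mean least for RBL1 (-7.23 to -6.70) and most for LMNB1 (-5.73 to -2.81). Of 91 alternative values, 66 stayed within 1 SD over hairpins, the counting interval, or 1.5 times for counts. Part of that was fixed in advance. A mean that leaves out 1 hairpin cannot move by 1 SD, and every member had at least 272 tags at PD40, above each tag minimum tried. The 66 are therefore no measure of stability. All counts and gene means under TMM scaling and DESeq2's size factors fell outside these limits. For the values outside the limits the cause was not tested, beyond what each setting leaves out or rescales. Hairpins with few tags at PD60 allow only wide ratios or bounds.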

Other observations

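The genes with courses most like those of the 5 targets were found from the mean log2 change of each gene in the 4 successive intervals, by Euclidean distance over 630 other genes with at least 3 hairpins. For CDKN2A they were DMPK (distance 0.22), PRMT6 (0.29) and USP51 (0.36), against a median distance of 1.31. For RB1 they were EED (0.26), NCAPD2 (0.33) and ING1 (0.46), against a median of 1.99. EED is a core subunit of the Polycomb complex that methylates lysine 27 of histone H3, NCAPD2 a condensin subunit and PRMT6 an arginine methyltransferase. For LMNB1 they were CUL4B (0.34), MYST2 (0.47) and H2AFV (0.48), for RBL1 JARID1C (0.48), HIST1H3A (0.55) and PIM1 (0.57), and for CDKN1A EZH1 (0.49), NFKBIA (0.51) and MLL (0.53). The points share the same 5 columns and the mean hides how the hairpins of a gene differ. The 3 nearest of 630 genes lie under the median distance by selection, and whether their courses are unusually alike was not tested.

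Catalogue numbers below 20000 went with a higher start among the members but not in the rest of the library; this split was chosen after the values were seen. The 9 such members, against CDKN1A, CDKN2A, RB1 and RBL1, had a median of 15447 tags at PD40, and the other 25 had 3881. Among hairpins against other genes the medians were 691 for 1353 hairpins and 1263 for 2055. Among the 9 were the most abundant hairpins of CDKN2A, RB1 and RBL1 at PD40, and 1 of the 9 was over 2-fold higher at PD60, as was 1 of the 25.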
